A study of Rattus norvegicus with 34 samples.

Results

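Periostin, osteopontin, tenascin-C and the relatives of SPARC are secreted proteins of the extracellular matrix that carry signals to cells more than they carry load. They are therefore called matricellular proteins. In the heart several of them are abundant during development and are known to come back after injury, when fibroblasts and macrophages build the scar. The 7 genes examined here were Postn (periostin), Tgfbi (transforming growth factor beta-induced protein), Spp1 (osteopontin), Tnc (tenascin-C), Sparc (osteonectin), Sparcl1 (hevin) and Smoc2 (SPARC-related modular calcium binding 2). They were chosen by name, with earlier results of these data known. The data held 29214 transcript clusters (the array's units for a gene or transcript), of which 15310 carried the symbol of 1 gene. Of the 7 genes, 6 had 1 transcript cluster each under their own symbol, and Tnc was not analysed here.

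Samples came from male Wistar rats, 2 months after ligation of the proximal left coronary artery or a sham operation without ligation, and each array held RNA of 1 rat. There were 23 arrays of left ventricle (LV): 6 of sham-operated rats, and 6, 6 and 5 of rats with a small (S-MI), moderate (M-MI) and large (L-MI) myocardial infarction. A further 11 arrays held peripheral blood mononuclear cells (PBMCs) of 6 sham-operated and 5 L-MI rats. These are likely the same rats as in the LV groups of equal size, but no label links the arrays. The age of the rats was not given in the sources used here. The infarct size was estimated from wall motion in the ultrasound image. The sham samples were whole LV and those of the infarcted rats were LV without the visible scar, so that operation and sampled region cannot be told apart. The values are log2 array signals, and the precision of every comparison is limited by the number of arrays. In these bulk samples, fewer cells of a type and less RNA per cell cannot be told apart either. Cardiomyocyte markers in LV, and T and B cell markers in PBMCs, marked the tissues as labelled: the mean log2 signal of 9 cardiomyocyte genes was 12.9 to 13.1 on every LV array, and that of 7 T cell genes was 11.6 to 11.9 on every PBMC array.

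A pair of arrays needs mention before the results. In both tissues, L-MI replicate 1 carries a description that speaks of a compensated injury, whereas its title and infarct size say L-MI, and it was kept as L-MI. The same members were called without it. L-MI replicate 5 of LV stood apart in Spp1 and in several genes of bone and cartilage matrix described further on. Values of these genes without it are given beside them.

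The sequences before the listed start sites of Postn and Spp1, the only members called in LV, are shown first. They can be read beside the values of each gene. Each run holds the 250 bases before the start site listed for the gene in RefSeq's promoter table of the GRCr8 assembly, 5′ to 3′ on the gene's own strand. Capitals mark TATAAA, the core of the TATA box. The Postn run is chr2:140677811-140678060 on the plus strand and the Spp1 run is chr14:5619805-5620054 on the minus strand.

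Postn: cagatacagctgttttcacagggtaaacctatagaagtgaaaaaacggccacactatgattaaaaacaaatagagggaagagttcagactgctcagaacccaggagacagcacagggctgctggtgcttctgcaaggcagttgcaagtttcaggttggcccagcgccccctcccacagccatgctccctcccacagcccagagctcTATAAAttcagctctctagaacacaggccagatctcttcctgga

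Spp1: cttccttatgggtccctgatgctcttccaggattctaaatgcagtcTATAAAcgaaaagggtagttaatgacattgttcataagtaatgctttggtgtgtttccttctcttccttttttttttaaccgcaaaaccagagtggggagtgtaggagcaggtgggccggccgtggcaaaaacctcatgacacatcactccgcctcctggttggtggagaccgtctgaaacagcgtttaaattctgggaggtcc

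The TATAAA of Postn began 44 bases before the listed start and that of Spp1 204 bases before it. On either strand, TATAAA occurred in 12.9% of the 33469 promoters of the table and in 3 of the 6 member promoters it holds (Postn, Spp1 and Tnc). TGANTCA, the site of AP-1 factors, occurred in 6.34% of all promoters and in none of the 6. GGAATG, the site of TEAD factors, occurred in 12.1% of all promoters and only in Sparc among the members. TGTGGT, a form of the site of RUNX factors, occurred in 14.5% of all promoters and in Tgfbi and Sparc. The form TGCGGT was not searched and its share of all promoters was not counted. Its reverse complement, accgca, stands in the Spp1 run. The motifs do not overlap in these windows. The listed starts of Postn and Spp1, and the whole of both runs shown, lie inside the annotated spans of the genes. The runs are thus not sequence upstream of these spans. A match is a run of letters and was not tested for binding.

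Postn and Spp1 rose strongly in the LV of rats with L-MI, and neither gene was called in the LV of rats with M-MI or S-MI. The other 4 members differed from sham by less than 1.3-fold in L-MI. Calls in LV came from 1 limma model over the 23 arrays and needed a 1.3-fold difference together with a p, adjusted after Benjamini and Hochberg, no higher than 0.05. By this rule 2 of the 6 measured members were called in L-MI against sham, both higher, where 3.22% of all transcript clusters were called and 2.08% were called higher. The median log2 difference of the 6 members was 0.21, against -0.01 over all transcript clusters.

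Postn encodes periostin, a protein with fasciclin domains that activated fibroblasts secrete and that helps cross-link collagen. Its log2 signal on the 6 sham arrays ran from 5.57 to 6.08 with a median of 5.83. On the L-MI arrays it was 9.31, 7.80, 9.10, 8.43 and 9.41 (replicates 1 to 5). Every L-MI array lay above every sham array by a wide margin, and replicates 2 and 4 were the lowest of the group. L-MI exceeded sham by 3.0 (SE 0.23) on the log2 scale, which is 8.0-fold (95% confidence interval 5.74 to 11.2, limma, adjusted p = 1.05e-07). Among all 29214 transcript clusters this was the largest rise and the smallest p. The difference ran from 2.85 without L-MI replicate 5 to 3.25 without L-MI replicate 2.

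Spp1 encodes osteopontin, a phosphorylated glycoprotein that binds integrins and CD44 and is made by macrophages, fibroblasts and bone cells. The sham arrays ran from 5.99 to 6.78 with a median of 6.32. The L-MI arrays gave 7.83, 8.34, 7.46, 7.85 and 10.3 (replicates 1 to 5). The groups did not overlap, but replicate 5 lay far above the other L-MI arrays, and the SD was 1.14 in L-MI against 0.28 in sham. L-MI exceeded sham by 2.03 (SE 0.32) on the log2 scale, which is 4.08-fold (95% confidence interval 2.58 to 6.45, limma, adjusted p = 0.000188), the rise of rank 7 among all transcript clusters. Without L-MI replicate 5 the difference was 1.54, and Spp1 was still called with each array left out in turn.

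**Figure D1:**
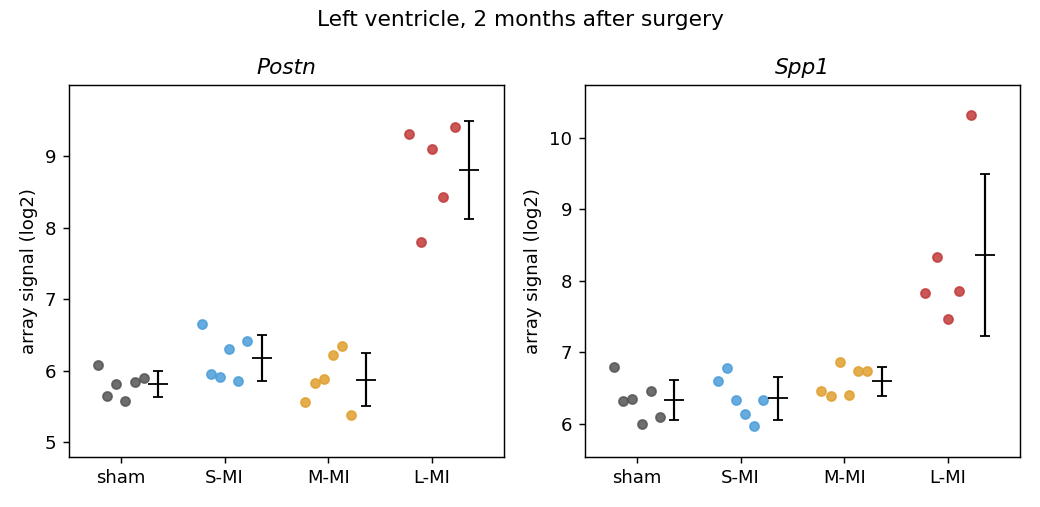
Log2 array signal of Postn and Spp1 in LV by group, with 1 point per rat (sham, S-MI and M-MI n = 6, L-MI n = 5) and the mean with its SD as a bar beside the points. The vertical axes span the same range of log2 units around different centres. All 5 L-MI points lie above all other points in both genes, and 1 L-MI point of Spp1 (replicate 5, 10.3) stands apart.

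Sparc encodes a calcium-binding glycoprotein that binds collagen and takes part in the assembly of collagen fibrils. Its signal was 12.75 to 12.86 on the sham arrays, with a median of 12.77, and 13.08, 12.96, 12.88, 12.91 and 13.12 on the L-MI arrays (replicates 1 to 5). The lowest L-MI array (12.88) lay just above the highest sham array (12.86). Sparc was thus the third member, beside Postn and Spp1, whose L-MI arrays were all above sham, as was the case for 3.1% of all transcript clusters. The difference was 0.21 (SE 0.06) on the log2 scale, which is 1.15-fold. It passed the adjusted p (limma, 0.0198), as 4.57% of all transcript clusters did in the same direction, but not the fold threshold. Its adjusted p ran from 0.00806 to 0.0713 when each array was left out in turn.

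Tgfbi, which encodes a fasciclin-domain relative of periostin induced by TGF-beta, ran from 8.55 to 8.77 on the sham arrays with a median of 8.64. The L-MI arrays gave 8.97, 8.70, 8.97, 8.83 and 8.90 (replicates 1 to 5). Replicate 2 lay within the sham range and the other 4 above it. The difference of 0.22 (SE 0.08) did not pass (limma, adjusted p = 0.0775).

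Sparcl1 encodes hevin, a close relative of SPARC made by endothelial and mural cells. Its signal was 12.06 to 12.17 in sham, with a median of 12.12, and 12.29, 12.21, 12.23, 12.16 and 12.32 in L-MI. Replicate 4 lay within the sham range and the other L-MI arrays above it. The difference was 0.13 (SE 0.04) and did not pass (limma, adjusted p = 0.0681).

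Smoc2, which encodes another member of the SPARC family, ran from 7.46 to 7.85 in sham with a median of 7.74. The L-MI arrays gave 7.67, 7.60, 7.84, 7.48 and 7.73, all within the sham range. The difference was -0.04 (SE 0.09, 95% confidence interval -0.23 to 0.14, limma, adjusted p = 0.837).

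**Figure D2:**
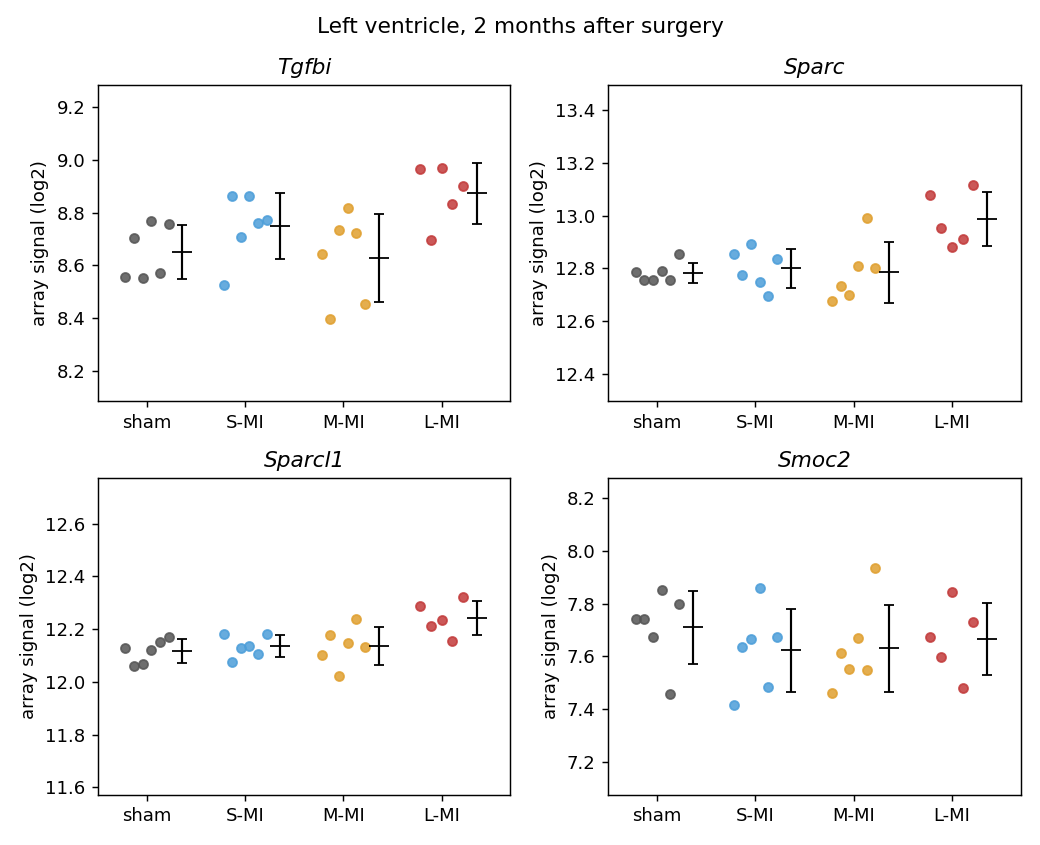
Log2 array signal of Tgfbi, Sparc, Sparcl1 and Smoc2 in LV by group, with 1 point per rat and the mean with its SD as a bar. Each vertical axis spans the same 1.2 log2 units around a different centre. The L-MI points of Sparc lie above all sham points, those of Tgfbi and Sparcl1 overlap them by 1 array each, and those of Smoc2 lie within the sham range.

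The rise of Postn and Spp1 was thus found with the large infarct and was not detected with the smaller ones. In M-MI and in S-MI against sham, 0 of the 6 members were called by limma, none had an unadjusted p under 0.05, and 0% of all transcript clusters were called. The largest member differences in these groups were 0.37 for Postn in S-MI (SE 0.22, limma, adjusted p = 0.849) and 0.26 for Spp1 in M-MI (SE 0.30, limma, adjusted p = 0.841). The Postn signal was 5.85, 6.13 and 6.65 (lowest, median and highest) in S-MI and 5.38, 5.85 and 6.34 in M-MI. That of Spp1 was 5.96, 6.33 and 6.78 in S-MI and 6.38, 6.59 and 6.85 in M-MI. Both groups overlapped sham in both genes. The upper 95% limits were 0.83 (S-MI) and 0.52 (M-MI) for Postn, and 0.65 and 0.89 for Spp1, so that log2 changes of the size seen in L-MI lay outside these intervals.

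Compared directly, L-MI exceeded M-MI by 2.94 in Postn (SE 0.23, limma, adjusted p = 2.77e-07) and by 1.76 in Spp1 (SE 0.32, limma, adjusted p = 0.000883). These were the 2 members called, where 2.68% of all transcript clusters were called and 1.99% were called higher. L-MI exceeded S-MI by 2.63 in Postn (SE 0.23, limma, adjusted p = 8.10e-07) and by 2.00 in Spp1 (SE 0.32, limma, adjusted p = 0.000362), again the 2 members called, against 2.48% of all transcript clusters called and 1.57% called higher. Sparc passed the adjusted p in both comparisons (limma, 0.0258 and 0.0407) with differences of 0.20 and 0.19, under the fold threshold, where 4.48% and 3.61% of all transcript clusters passed in the same direction. These comparisons and those with sham share the L-MI arrays. Between M-MI and S-MI, 0 of the 6 members were called by limma and none had an unadjusted p under 0.05, where 0% of all transcript clusters were called. The order of the group means was L-MI, S-MI, M-MI, sham for Postn and L-MI, M-MI, S-MI, sham for Spp1, in which only the step from L-MI to the next group passed the test.

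**Figure D3:**
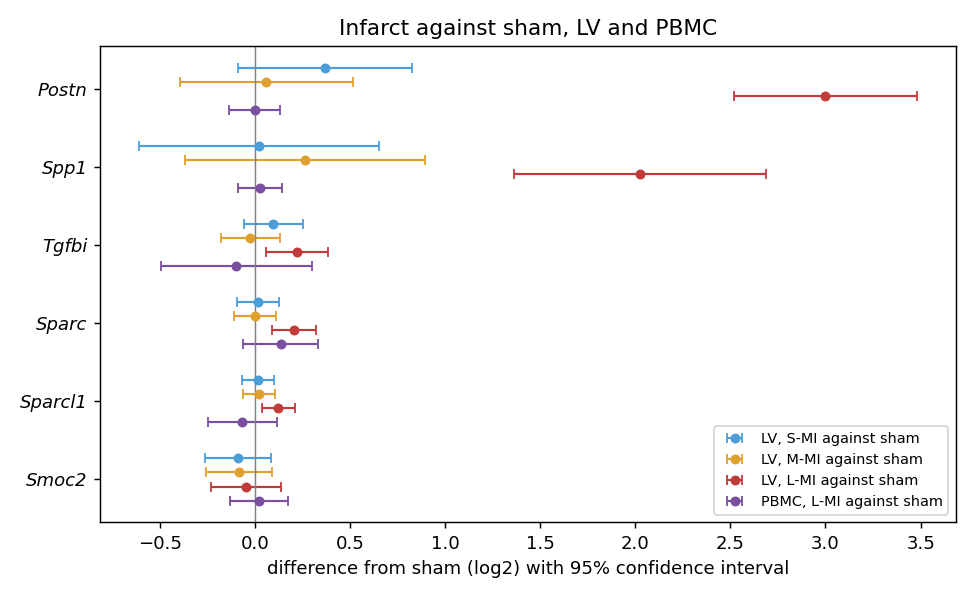
Difference from sham on the log2 scale for the 6 measured members, with 95% confidence intervals from limma, for S-MI, M-MI and L-MI in LV and for L-MI in PBMCs. The L-MI intervals of Postn (2.52 to 3.48) and Spp1 (1.37 to 2.69) in LV lie apart from all other intervals of the same gene.

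In PBMCs no difference between L-MI and sham was detected in the members. Calls there needed a 1.2-fold difference with an unadjusted p no higher than 0.05 in a limma model over the 11 arrays. By this rule 0 of the 6 members were called and none had an unadjusted p under 0.05, where 0.924% of all transcript clusters were called. Each member's difference in means was also compared by a two-sided exact permutation test (462 splits, with the smaller tail doubled). Postn ran from 4.51 to 4.74 in sham, with a median of 4.55, and was 4.57, 4.48, 4.57, 4.64 and 4.73 in L-MI. These signals were the lowest of the members and lay far below the array medians (6.97 to 7.01). Without the dimmest 30% of transcript clusters, 4 of the 6 members stayed in the PBMC test, and Postn and Sparcl1, the lowest, did not. A change of Postn in PBMCs could thus go undetected. The groups overlapped almost wholly, with a difference of 0.00 (SE 0.06, exact permutation p = 1.0). Spp1 ran from 6.39 to 6.59 in sham, with a median of 6.42, and was 6.43, 6.48, 6.42, 6.48 and 6.57 in L-MI. All of these lay within the sham range, and the difference was 0.03 (SE 0.05, exact permutation p = 0.476).

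The member with the largest difference in PBMCs was Sparc, which platelets store in their granules. Sparc was 7.52 to 7.86 in sham, with a median of 7.67, and 7.60, 8.05, 7.74, 7.90 and 7.75 in L-MI. Replicates 2 and 4 lay above the sham range and the other 3 within it, and the difference was 0.14 (SE 0.09, exact permutation p = 0.199). The mean log2 signal of 4 platelet markers was 11.6 to 12.6 in sham and 12.0 to 12.8 in L-MI; their part in the Sparc signal was not tested. Tgfbi, which blood monocytes express, was 9.58 to 10.6 in sham, with a median of 10.1, and 10.5, 9.58, 10.2, 9.76 and 9.93 in L-MI. Both groups spread over nearly the same range, and the difference was -0.10 (SE 0.18, exact permutation p = 0.645). The differences of Sparcl1 (-0.06, exact permutation p = 0.481) and Smoc2 (0.02, exact permutation p = 0.788) were also within the spread of the arrays.

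**Figure D4:**
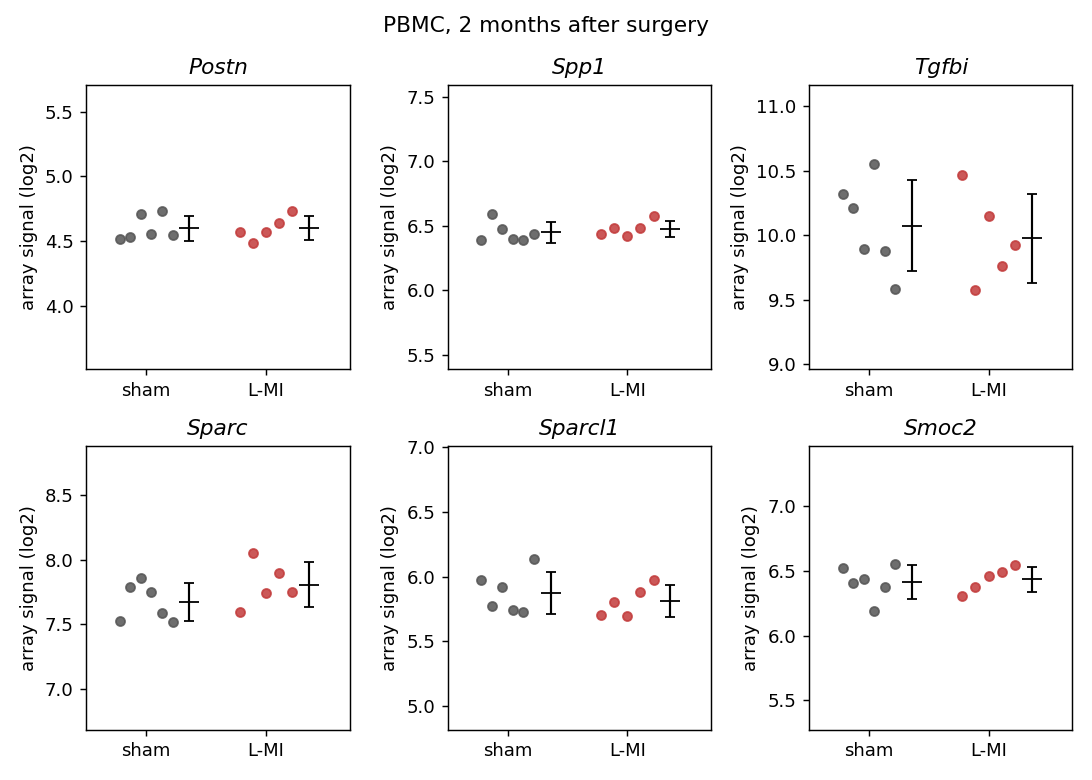
Log2 array signal of the 6 measured members in PBMCs of sham-operated (n = 6) and L-MI rats (n = 5), with 1 point per rat and the mean with its SD as a bar. Each vertical axis spans the same number of log2 units around a different centre. The groups overlap in every gene, and Tgfbi has the widest spread.

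The L-MI effect was also compared between the tissues, as the difference of the L-MI against sham differences in a limma model over 22 arrays. The model took the arrays as independent, although both tissues likely came from the same rats. It differed in 2 of the 6 members at an adjusted p of at most 0.05, where 2.55% of all transcript clusters passed and 1.39% passed with the larger effect in LV. The effect in LV exceeded that in PBMCs by 3.0 (SE 0.27, limma, adjusted p = 4.63e-06) for Postn and by 2.00 (SE 0.43, limma, adjusted p = 0.0124) for Spp1. Both genes lay below the array medians in PBMCs, Postn by the most, and changes at a low signal can go undetected. For Sparc the difference of the effects was 0.07 (95% confidence interval -0.15 to 0.29, limma, adjusted p = 0.847). Levels were not compared between the tissues, because the array medians (6.52 to 6.61 in LV and 6.97 to 7.01 in PBMCs) differ as they would after separate normalization.

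Other genes of the members' families were examined in the LV of L-MI rats. Of 5 other SPARC family genes measured, Fstl1 and Smoc1 rose and none fell, where 2.08% of all transcript clusters were called higher; the median of the 5 was 0.19, against -0.01 over all. Fstl1 encodes follistatin-like 1, a glycoprotein secreted by fibroblasts of the injured heart. It was 9.33 to 9.46 in sham and 10.4, 10.01, 10.1, 10.2 and 10.5 in L-MI. The groups did not overlap, and the difference was 0.85 (SE 0.08, limma, adjusted p = 8.83e-07). Smoc1, the nearest relative of Smoc2, was higher by 0.48 (SE 0.08, limma, adjusted p = 0.000514), with 1 L-MI array (7.003) below the highest sham array (7.03). The difference of Spock2, a testican of the same family, was 0.19 (limma, adjusted p = 0.11).

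Spp1 belongs to a family of phosphorylated proteins of bone and tooth, of which Ibsp, Dmp1, Dspp and Mepe were also measured. Only Ibsp, which encodes bone sialoprotein, was called, by 1.24 (SE 0.39, limma, adjusted p = 0.0449). The call was lost in 24 of 32 alternative analyses, with adjusted p up to 0.191. The tenascin genes measured were Tnn and Tnr, and neither was called: the difference was 0.65 for Tnn (SE 0.23, limma, adjusted p = 0.0744) and 0.17 for Tnr (SE 0.06, limma, adjusted p = 0.0932). Tnn was called in 3 of 32 alternative analyses, those without L-MI replicate 1, 2 or 3, and its difference was 0.31 without replicate 5.

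L-MI replicate 5, the array with the highest Spp1, also held the highest Ibsp and Tnn. Ibsp was 5.06, 6.38, 4.85, 5.85 and 8.56 on the L-MI arrays, against 4.54 to 5.13 in sham. Tnn was 5.12, 5.18, 5.16, 5.82 and 7.06, against 4.78 to 5.14 in sham. Replicates 1 and 3 of Ibsp lay within the sham range, replicates 2 and 4 above it, and replicate 5 far above. Without replicate 5 the difference of Ibsp was 0.63 (limma, adjusted p = 0.0429).

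The transcript clusters most like Spp1 were found by likeness, which was Pearson's r between the deviations of single arrays from their group means over the 23 LV arrays, across the 14506 genes with a symbol of their own. Since L-MI replicate 5 had by far the largest deviation of Spp1, the measure favours genes that are high on that array. The nearest genes to Spp1 were Bglap (osteocalcin of bone matrix, r = 0.916), Mmp9 (a gelatinase, r = 0.914) and Comp (cartilage oligomeric matrix protein, r = 0.895). Bglap was 6.598, 6.79, 6.28, 7.14 and 9.44 on the L-MI arrays, against 5.92 to 6.43 in sham. Mmp9 was 6.03, 6.40, 5.70, 6.37 and 8.75, against 5.78 to 6.02. Comp was 7.19, 7.52, 6.73, 7.21 and 8.19, against 6.25 to 6.57. Replicate 5 was the highest array in all 3 genes, and Comp was above the sham range on every L-MI array. Against sham, Comp (0.97, limma, adjusted p = 0.000131) and Bglap (1.10, limma, adjusted p = 0.0367) were called and Mmp9 was not (0.78, limma, adjusted p = 0.141). Without replicate 5 the difference was 0.77 for Comp (limma, adjusted p = 4.66e-05), 0.55 for Bglap (limma, adjusted p = 0.00424) and 0.25 for Mmp9 (limma, adjusted p = 0.183). Without it, r with Spp1 was 0.554, 0.54 and 0.653.

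**Figure D5:**
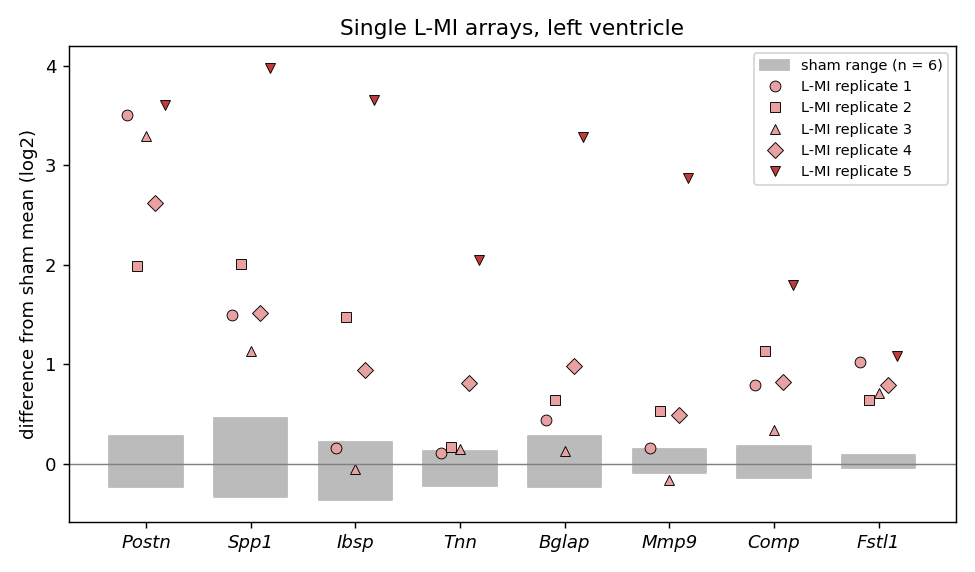
Difference of each L-MI array of LV from the sham mean, on the log2 scale, for Postn, Spp1, 5 genes of bone, cartilage or matrix turnover and Fstl1, with the range of the 6 sham arrays as a grey band. Replicate 5 is the highest array in every gene shown, by the widest margin in Spp1, Ibsp, Tnn, Bglap and Mmp9, and lies near replicates 1 and 3 in Postn and near replicate 1 in Fstl1.

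The genes most like Postn by the same measure were Lrp1 (an endocytic receptor), Ltbp3 (a binding protein of latent TGF-beta) and Pkd1 (polycystin 1), each with r = 0.838. Without the L-MI arrays r was 0.691, 0.605 and 0.714. Those most like Sparc were S100a10 (r = 0.867), Fstl1 (r = 0.86) and Klf3 (r = 0.833), which were 0.827, 0.856 and 0.819 without the L-MI arrays. Fstl1, a relative of Sparc by sequence, thus varied with it among rats of the same group. The nearest to Tgfbi were Zbtb17 and Kif13a (both r = 0.769) and Ankh (0.755), to Sparcl1 Srgap2 (0.85), Cdk17 (0.801) and Plekhg5 (0.796), and to Smoc2 Irf8 (0.83), Clhc1 (0.744) and Mars1 (0.733). These correlations rest on 23 arrays that share 4 group means and are descriptions.

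Among the members themselves, 15 pairs were compared by the same deviations. Only Sparc and Sparcl1 passed after Benjamini-Hochberg adjustment over the 15 pairs (r = 0.735, permutation p = 0.00081, adjusted 0.0122; rho = 0.699, permutation p = 0.00107, adjusted 0.0148). Without the 2 arrays farthest from the median of Sparc, r was 0.601. Without the L-MI arrays r was 0.691 over 18 arrays and did not pass (permutation p = 0.00852, adjusted 0.128). Postn and Spp1, the members that rose, did not pass as a pair (r = 0.26, permutation p = 0.563; rho = 0.161, permutation p = 0.543). Their r was 0.00 without the 2 farthest arrays, L-MI replicates 2 and 5. By rank, Postn and Sparcl1 also passed (rho = 0.679, permutation p = 0.00197, adjusted 0.0148), whereas r was 0.597 (permutation p = 0.00939, adjusted 0.0704). Without the L-MI arrays the rank correlation of this pair did not pass either (rho = 0.631, permutation p = 0.011, adjusted 0.131).

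Integrins and CD44 are the cell surface receptors of periostin, osteopontin and tenascins. Among the integrins listed, Itgav, Itga8 and Itga9 had no transcript cluster of their own symbol and were not measured. Of 8 such receptors measured, none was called in L-MI against sham by fold and adjusted p, where 2.08% of all transcript clusters were called higher. Their median difference was 0.28, against -0.01 over all. Itgb5 (0.29, limma, adjusted p = 0.000368), Itgb1 (0.26, limma, adjusted p = 0.00102), Cd44 (0.37, limma, adjusted p = 0.0191) and Itga5 (0.28, limma, adjusted p = 0.0387) passed the adjusted p at less than 1.3-fold. Over all transcript clusters, 4.57% passed the adjusted p in the same direction. The largest difference was that of Itgb8 (0.45, SE 0.21), which did not pass (limma, adjusted p = 0.213). The L-MI arrays of Itgb8, Itgb1 and Itgb5 all lay above sham, as was the case for 3.1% of all transcript clusters. Cd44, the receptor of hyaluronan and osteopontin, was just under the fold threshold and was called in 8 of 33 alternative analyses.

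The matrix proteins that the members bind, and the enzymes that work with periostin on them, were also higher in L-MI. Of 9 measured, 7 rose in L-MI against sham, none fell, and all 9 had L-MI arrays above every sham array, where 2.08% of all transcript clusters were called higher and 3.1% had L-MI arrays above every sham array. The median of the 9 was 0.66. Fn1, which encodes fibronectin, was 8.31 to 8.63 in sham and 9.58 to 10.6 in L-MI, a difference of 1.56 (SE 0.16, limma, adjusted p = 2.35e-06). Col1a1, a chain of type I collagen, was 8.48 to 8.63 in sham and 9.16 to 10.9 in L-MI, a difference of 1.196 (SE 0.18, limma, adjusted p = 0.000138). Vcan, which encodes the proteoglycan versican, was higher by 1.15 (SE 0.15, limma, adjusted p = 3.51e-05). Lox, which cross-links collagen (0.76), Bmp1, which cleaves procollagen and activates Lox (0.43), Col1a2 (0.66) and Col3a1 (0.57) also rose, while Col5a1 and Col5a2 (both 0.35) stayed under the fold threshold.

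Postn and Tgfbi are known targets of TGF-beta signalling, of which 9 genes were measured. In L-MI against sham, 2 rose and none fell, against the 2.08% of all transcript clusters called higher, and the median of the 9 was 0.08. Tgfb2 was higher by 1.001 (SE 0.18, limma, adjusted p = 0.000543) and Tgfb1 by 0.40 (SE 0.07, limma, adjusted p = 0.000498), the latter under the fold threshold in 4 of 33 alternative analyses. Tgfb3 (0.35, limma, adjusted p = 0.02) passed the adjusted p but not the fold. The receptors and Smads measured were not called, and the largest difference among them was 0.38 for Smad7 (limma, adjusted p = 0.0616), which was called in 7 of 33 alternative analyses. In PBMCs the families, receptors, partners and TGF-beta genes held 1 call, where 0.924% of all transcript clusters were called. It was that of Tgfbr3 (0.27, SE 0.13, limma, unadjusted p = 0.0487, adjusted p = 1.0) and was lost in some of the alternative analyses.

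Markers of the cells known to secrete the members moved in the same samples. All 12 macrophage markers, among them Mrc1 (0.84) and Csf1r (0.75), rose in the LV of L-MI rats, where 2.08% of all transcript clusters were called higher. Their mean log2 signal was 8.12 to 8.37 on the sham arrays and 8.69 to 9.38 on the L-MI arrays. Of 8 fibroblast markers 4 rose (means 9.34 to 9.58 and 9.79 to 10.3) and of 7 markers of activated fibroblasts 4 rose (7.23 to 7.398 and 7.60 to 7.97). Col1a1, Col1a2 and Lox stand both here and among the partners. Of 8 monocyte markers 5 rose (6.90 to 7.06 and 7.24 to 7.72), of which Cd14, Csf1r, Lyz2 and Cd68 are also on the macrophage list and Vcan is among the partners. Of 6 markers of smooth muscle and pericytes 1, Cnn1, rose (9.02 to 9.18 and 9.16 to 9.38). None of the 9 cardiomyocyte markers was called, but all 9 had lower means in L-MI, and 3 passed the adjusted p under the fold threshold, Myh6 by the most (-0.29, limma, adjusted p = 0.00472). Their mean was 13.01 to 13.05 on the sham arrays and 12.90 to 12.995 on the L-MI arrays, without overlap. None of the 7 endothelial markers was called, and all 7 were lower in L-MI (means 9.48 to 9.63 and 9.42 to 9.49), with Tek passing the adjusted p under the fold threshold (-0.17, limma, adjusted p = 0.0393). Beside the high Spp1 of L-MI replicate 5, the fibroblast mean was the highest of the group (10.3). So were its means of the activated fibroblast (7.97), smooth muscle and pericyte (9.38) and monocyte markers (7.72). Its macrophage mean (9.19) lay below that of replicates 1 and 3. The part of these cells in the values of Postn and Spp1 was not tested.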

How the data were processed

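RNA of LV and PBMCs was hybridized to Affymetrix Rat Gene 1.0 ST arrays. The deposited values are log2 signals that the authors made with RMA and Partek software (versions not given in the sources used here). No source used here gives the log base, and log2, the scale of RMA, was assumed. RMA subtracts background and equalizes arrays by quantiles, which damps differences between arrays and compresses large folds. Genes were named by the platform annotation, with 323 transcript clusters of several symbols and 13581 of none left unnamed.

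limma 3.58.1 in R 4.3.3 (lmFit, contrasts and eBayes) was applied over all 29214 transcript clusters, with p adjusted over all of them. There was 1 model for LV (23 arrays), 1 for PBMCs (11 arrays) and 1 for the difference between tissues (22 arrays). The last took its arrays as independent. The sham and L-MI groups of both tissues are as large as those of the rats, and heart and blood were taken at the same end point. Rats are thus likely shared between the tissues, but which arrays share a rat is not given. Single PBMC genes were also compared by exact permutation, and pairs of members by 100000 permutations in scipy 1.17.1. The fits were tested on simulated data. Figures were drawn with matplotlib 3.10.9. The labels call the samples biological replicates. Replicate numbers were not used to pair the samples. Deviations of same-numbered arrays had correlations from -0.263 to 0.261 within LV and from -0.054 to 0.128 within PBMCs, where they belong to different rats. Between LV and PBMCs of the same operation group they ran from -0.050 to 0.139, and such values cannot show whether rats are shared.

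The members and the lists of related genes, written from general knowledge, were chosen with earlier results of these data known. All members are named; of each list the called genes and up to 4 with the smallest p; of each marker list up to 3; and the 3 genes most like each member. Some of the selected genes are given without values or not at all. Alternatives were a fit without the dimmest 30% of transcript clusters, no moderation, array weights, a variance trend, quantile normalization once more, centring on array medians, the 2 groups compared alone, stricter or no thresholds, the replicate block, and each array left out. Counts for the lists, and the deviations and nearest genes without L-MI replicate 5, were added after seeing the data.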

Additional observations from a re-analysis of the deposited data

Results flagged for a closer look

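Sham replicate 6 of LV was the highest of its group in Sparc (12.8555), with a gap to the next array that took 0.662 of the group's range, above Dixon's critical share for 6 arrays. It was the only such array in 36 tests of a member in a group, and chance gives about 1 in 20. The L-MI effect differed between LV and PBMCs by 2.99955 on the log2 scale for Postn and by 1.99727 for Spp1 (limma interaction, adjusted p = 4.63e-06 and 0.0124).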

How the results depend on the processing

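Calls of Postn and Spp1 in L-MI against sham, M-MI and S-MI of LV held in all alternatives run, and no called value of a member changed direction. With each array left out in turn, 2 members were called in each of these comparisons and in that between the tissues, and 0 in the others. Against sham, Postn then ran from 2.85 to 3.25 and Spp1 from 1.54 to 2.25. Between the tissues, a stricter adjusted p of 0.01 left 1 member, Postn. Among pairs of members, 1 passed over all arrays and 0 without the L-MI arrays, which leaves 18 arrays. Without a fold threshold, Sparc joined the calls of L-MI in LV. With the replicate number as a block (replicate block), 2 members were called in L-MI against sham, Postn at 2.99 and Spp1 at 2.02. The block changed no other member's call. The labels do not say that these numbers pair the samples. Of 1486 values of the members under alternatives, called or not, 48 changed sign, all of them uncalled. Another transcript cluster per gene could not be tried, since each member has 1. The number of arrays limits small changes, and RMA values carry no measure of background, so no member was called absent.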
